A study of Mus musculus with 9 samples.

Results

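The vascular endothelial growth factor (VEGF) and angiopoietin ligands and receptors examined here were 10 genes chosen by symbol from the 32286 features of the gene table. They comprised 5 ligands (Vegfa, Vegfb, Vegfc and Pgf of the VEGF family, and the angiopoietin Angpt2) and 5 receptors (Kdr, Flt1 and Nrp1 for VEGF ligands, and Tek and Tie1 of the TIE family), and all 10 symbols were found. They were measured by 5′ single-cell RNA sequencing of complete cell suspensions from 9 primary tumours grown after injection of 168FARN cells into the mammary fat pads of Balb/c mice. The design implied 2 questions for these genes: whether their levels differed between genotypes within 1 cell type, and whether ligand levels in tumour cells differed between hypoxic and other cells.

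168FARN is a mouse mammary tumour cell line that is not metastatic in its parental form. The 3 groups were the unedited line (WT), the line after CRISPR/Cas9 targeting of Kmt2c (Kmt2c_KO) and the line after targeting of Kmt2d (Kmt2d_KO), with 3 libraries each. KMT2C and KMT2D are histone H3 lysine 4 methyltransferases. All groups carried an H2B–mCherry reporter (H2BMc in the gene table), and the knockouts were sorted pools made with several guides, so the 3 libraries of a group repeat the tumour and not the making of the knockout. The numbers 1 to 3 used here only name libraries, because the files give the genotype of each library but not which labelled replicate it is. The host mice had their own vessels with intact Kmt2c and Kmt2d.

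VEGF-A is the main growth factor for vessels, is induced at low oxygen through hypoxia-inducible factors, and signals in endothelial cells mostly through KDR, with NRP1 as a co-receptor. FLT1 binds VEGF-A, VEGF-B and PGF and can act as a decoy, VEGF-C acts on lymphatic and blood endothelium, and TEK is the receptor of the angiopoietins with TIE1 as its partner. ANGPT2 is released by endothelial cells themselves and is best known as a context-dependent antagonist of TEK that loosens vessels.

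The deposited matrix held 89147 barcodes, of which 58645 were kept (500 to 7500 detected genes and under 15% mitochondrial UMIs). Total UMIs per library ran from 21529691 to 125617312. The WT libraries were the smallest, with 939 to 2380 kept cells against 5997 to 14525 in the knockouts, and lost 26.6% to 68.5% of barcodes to the mitochondrial limit, against 13.0% to 29.5%. Counts of Kmt2c in tumour cells were close in all groups (mean 48.6 ± 8.50 UMIs per 1000000 UMIs (CPM) in Kmt2c_KO, 51.4 ± 1.47 in Kmt2d_KO and 48.9 ± 0.335 in WT; SD, n = 3), which checks no label, since small edits near the start of a gene need not lower its RNA. Kmt2d was at 27.0 ± 5.37 CPM in Kmt2c_KO, 27.6 ± 3.65 in Kmt2d_KO and 18.4 ± 3.71 in WT. Kmt2d_KO library 2 stood apart from libraries 1 and 3 of its group (summed counts differed from them by chi-square values of 154 and 157 per degree of freedom, against 29.3 between libraries 1 and 3), so member results that change without it are given both ways. Of 56715 distinct kept barcode sequences, 1889 occurred in more than 1 library.

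Cells were assigned by markers that include none of the 10 genes. Tumour cells had at least 1 H2BMc UMI and no UMI of Ptprc, Pecam1 or Cdh5, and numbered 15178. Endothelial cells had at least 3 of 8 endothelial markers (Pecam1, Cdh5, Cldn5, Egfl7, Emcn, Esam, Ecscr and Mmrn2) and no H2BMc or Ptprc UMI, and numbered 421, which was 27 to 70 per library. The 8 markers, which select these cells, were each detected in 64.4% to 96.2% of them. In the endothelial sums, summed markers were at 51 to 113 CPM for mural cells, 17.4 to 85.9 for dendritic cells, 0 to 30 for macrophages and at most 3 for T or NK cells. All levels below are CPM over the summed cells of 1 library. They compare 1 gene between cell types or groups and not 1 gene with another, because 5′ counts are not on a per-length scale.

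The upstream sequences of the ligands that the results turn on are shown first, because the ligand levels are set below against a hypoxia score. RefSeq on GRCm38.p6, which is mm10, gave an entry for 9 of the 10 genes (11 windows, with 2 starts each for Vegfa and Pgf). Angpt2 had none. The 250 bases before the start are written 5′ to 3′ on the strand of the gene, and capitals mark 3 motifs. The motif ACGTG and its variant with G first, GCGTG, are core letters to which hypoxia-inducible factors bind, and the motif GGGCGG is a GC box bound by SP1, each on either strand, so that a match on the other strand reads as the reverse complement. Vegfa lies at chr17:46032378-46032627, Vegfb at chr19:6987652-6987901 and Pgf at chr12:85177314-85177563, all on the minus strand, and the receptor gene Tek at chr4:94739039-94739288 on the plus strand.
Vegfa: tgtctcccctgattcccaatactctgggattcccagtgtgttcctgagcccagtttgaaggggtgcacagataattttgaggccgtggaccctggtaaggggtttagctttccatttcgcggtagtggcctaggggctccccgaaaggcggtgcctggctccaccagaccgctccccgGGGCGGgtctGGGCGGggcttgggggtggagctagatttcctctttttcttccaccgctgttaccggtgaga
Vegfb: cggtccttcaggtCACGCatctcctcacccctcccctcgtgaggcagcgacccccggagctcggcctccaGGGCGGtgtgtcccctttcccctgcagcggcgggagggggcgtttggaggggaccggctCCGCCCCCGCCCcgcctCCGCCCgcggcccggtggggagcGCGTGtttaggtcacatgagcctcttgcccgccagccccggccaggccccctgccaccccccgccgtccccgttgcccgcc
Pgf: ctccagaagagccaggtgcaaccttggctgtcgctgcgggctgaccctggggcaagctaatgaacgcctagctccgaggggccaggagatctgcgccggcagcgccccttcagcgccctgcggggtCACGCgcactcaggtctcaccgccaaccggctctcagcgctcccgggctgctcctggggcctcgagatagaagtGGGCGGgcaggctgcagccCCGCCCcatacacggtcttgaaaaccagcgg
Tek: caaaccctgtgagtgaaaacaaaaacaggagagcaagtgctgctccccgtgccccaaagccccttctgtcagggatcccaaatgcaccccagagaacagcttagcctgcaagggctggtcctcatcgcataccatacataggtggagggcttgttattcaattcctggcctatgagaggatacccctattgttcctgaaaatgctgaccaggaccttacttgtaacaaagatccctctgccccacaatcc
The printed Vegfa window, of the upstream start, held the GC box 2 times and neither hypoxia motif. The window of the other listed start, downstream of the printed one at chr17:46025164-46025413, held each of the 3 motifs 1 time. Whether that window acts as a promoter was not tested. The Vegfb window held the GC box 4 times and GCGTG 2 times, the printed Pgf window held the GC box 2 times and GCGTG 1 time (the window of its other start, at chr12:85175983-85176232, held 0 of the 3), and the Tek window held none of the 3. Of all 32851 windows of this length, 16.6% held the motif ACGTG while 28.2% held its variant GCGTG and 32.7% the GC box. A match is a description of the letters, and its absence says only that they are not in these 250 bases.

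The ligand Vegfa was a gene of tumour cells and macrophages, and the receptors were genes of endothelial cells. Vegfa ran from 21.0 to 67.0 CPM over the 9 tumour-cell sums with a median of 28.1, and from 0 to 74.6 with a median of 42.9 in macrophages. In endothelial cells it was nearly absent, with 3 UMIs in 421 cells. The tumour-cell level was higher than the endothelial level in 9 of 9 libraries, by 4.50 ± 1.08 (SD, n = 9) on the log2(CPM + 1) scale (exact sign-flip permutation test, two-sided p = 0.00391, the smallest 9 libraries can give; adjusted p = 0.0071 over 20 pairs of neighbouring cell types). Tumour cells and macrophages were not separated for Vegfa (difference −0.42 ± 1.86 for macrophages minus tumour cells, SD, n = 9; exact sign-flip permutation test, adjusted p = 0.711). Macrophages were the higher in each of the 6 knockout libraries and the lower in each of the 3 WT libraries, so the mean joins opposite directions. Macrophage values were 42.9, 74.6 and 72.8 CPM in Kmt2c_KO libraries 1 to 3, 69.9, 58.6 and 28.3 in Kmt2d_KO and 0, 6.98 and 22.6 in WT, with every knockout value above every WT value, and these groups were not tested. The WT values rest on 0, 1 and 6 UMIs. Tumour cells were also deeper than endothelial cells, with a median of 11426.5 against 5071 UMIs, and 31.4% of tumour cells held a Vegfa UMI against 0.713% of endothelial cells.

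Vegfb followed another order, with tumour cells highest at 215.6 to 274 CPM, macrophages at 37.7 to 132 and endothelial cells at 24.4 to 71.1. Tumour cells exceeded macrophages in 9 of 9 libraries by 1.56 ± 0.51 on the log2 scale (SD, n = 9; exact sign-flip permutation test, adjusted p = 0.0071). Macrophages in turn exceeded endothelial cells in 8 of 9 libraries (adjusted p = 0.0112 by the same exact test).

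Pgf, the placental growth factor, and Vegfc were highest in endothelial cells. Pgf ran from 27.5 to 358 CPM there, from 22.0 to 65.6 in tumour cells and from 0 to 35.4 in macrophages. The endothelial level was the higher in 8 of 9 libraries, by 1.83 ± 1.02 on the log2 scale (SD, n = 9; exact sign-flip permutation test, adjusted p = 0.0112). The exception was WT library 1, with 27.5 in endothelial and 29.8 in tumour cells. Vegfc reached only 2.76 in tumour cells and 37.7 in endothelial cells, with endothelial cells higher in 9 of 9 libraries by 2.61 ± 1.00 (exact sign-flip permutation test, adjusted p = 0.0071). Angpt2 was higher in endothelial cells (113 to 522 CPM) than in tumour cells (at most 27.3) in 9 of 9 libraries, by 3.54 ± 0.95 on the log2 scale (adjusted p = 0.0071 by the same exact permutation test).

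With at least 20 cells per library and type, which left tumour cells, macrophages and endothelial cells, each of the 5 receptors was higher in endothelial cells than in the next of these types in 9 of 9 libraries, with adjusted p = 0.0071 each in the exact sign-flip permutation test. Kdr, the main signalling receptor, ran from 354 to 544 CPM in endothelial cells and from 0 to 48.0 in macrophages. In tumour cells it was at most 0.163, with 13 UMIs in 15178 cells. Flt1 ran from 432 to 1043 and Tie1 from 301 to 508 in endothelial cells, while their highest tumour-cell values were 2.15 and 0.686. Tek ran from 44.8 to 163 in endothelial cells and from 2.84 to 10.2 in tumour cells. Nrp1 was the least restricted receptor, at 163 to 310 in endothelial cells, 77.8 to 140 in macrophages and 5.31 to 15.8 in tumour cells.

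Nrp1 differed between each neighbouring pair of cell types, and Kdr did as well, by 3.87 ± 1.73 on the log2 scale between macrophages and tumour cells (SD, n = 9; exact sign-flip permutation test, adjusted p = 0.0112). Macrophages and tumour cells were not separated for Flt1 (adjusted p = 0.443), Tek (0.303) or Tie1 (0.742) in the same exact permutation test. Mural cells, the pericytes and smooth muscle around vessels, numbered 120 and passed the minimum of 20 cells in only 1 library. With a minimum of 10 cells they could be compared in 8 libraries. Endothelial cells were then above mural cells in 8 of 8 libraries for Angpt2 and Flt1 (exact sign-flip permutation test, adjusted p = 0.0391 each), while Nrp1 was not separated (higher in 5 of 8, by 0.47 ± 0.93 on the log2 scale, SD; adjusted p = 0.537). The same minimum put dendritic cells next to endothelial cells for Kdr, with endothelial cells higher in 7 of 7 libraries (adjusted p = 0.0558 by the same exact test). Pooled over libraries, mural cells held 253 CPM of Flt1, 187 of Nrp1 and 83.3 of Angpt2, against 676, 250.2 and 227 in pooled endothelial cells. Kdr was at 0 in the 120 mural cells.

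**Figure D1:**
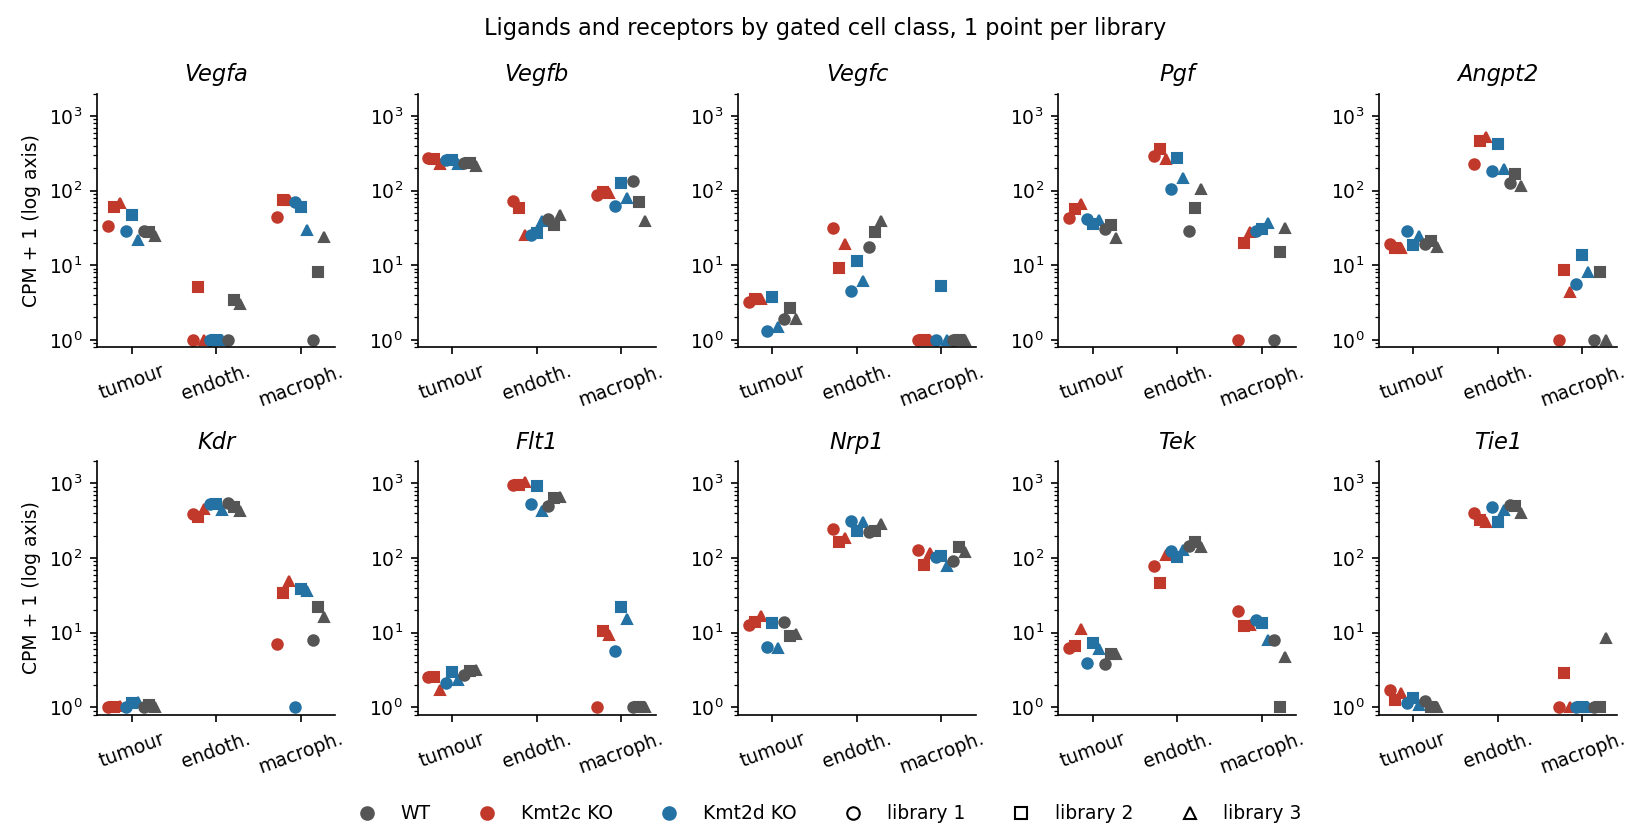
CPM + 1 (log axis) of the 10 genes in tumour, endothelial and macrophage cells, with 1 point for each of the 9 libraries coloured by genotype. The 5 receptors, Angpt2 and Vegfc are highest in endothelial cells in every library, while Vegfa spans 21.0 to 67.0 in tumour cells and at most 4.07 in endothelial cells.

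Tumour cells were divided by the summed UMIs of 16 hypoxia genes (Ero1l, Ndrg1, Slc2a1, Bnip3, Egln3, Ankrd37, Car9, Pdk1, P4ha1, P4ha2, Adm, Ak4, Fam162a, Kdm3a, Higd1a and Pfkfb3), none of them among the 10 genes. The 80th percentile of tumour cells with each library weighted equally, 12.9 UMIs of the list per 10000, separated 3515 hypoxic from 11663 other cells. The division is a range of a score and not a cell type, and 605 cells lay within 10% of the limit. Median depth was close, at 10807 UMIs in hypoxic and 11641 in other cells.

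Hypoxic cells held more Vegfa in every library. In hypoxic cells Vegfa was at 58.9, 100.4 and 95.6 CPM in Kmt2c_KO libraries 1 to 3, at 61.6, 89.9 and 37.9 in Kmt2d_KO and at 66.7, 82.1 and 71.9 in WT. In other cells it was at 23.1, 30.5 and 50.6 in Kmt2c_KO, at 21.2, 34.2 and 19.9 in Kmt2d_KO and at 23.8, 20.4 and 19.2 in WT. The lowest hypoxic value (Kmt2d_KO library 3) was under the highest value of other cells (Kmt2c_KO library 3), but within each library the hypoxic cells were higher. Vegfa rose by 1.54 ± 0.09 on the log2 scale (SE; 2.91-fold, edgeR quasi-likelihood test with the library as a block, adjusted p = 1.69e-11). A Vegfa UMI was found in 48.7% of hypoxic and 26.2% of other cells. In endothelial cells, a cell type nearly without Vegfa, the share was 0.713% at a median of 5071 UMIs.

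Vegfb rose less and Angpt2 fell slightly. Vegfb was at 238 to 287 CPM in hypoxic and 209 to 269 in other cells and was higher in the hypoxic cells of each library. Its difference was +0.29 ± 0.04 on the log2 scale (SE; edgeR, adjusted p = 1.59e-05). Angpt2 was at 8.75 to 28.0 in hypoxic and 16.7 to 27.2 in other cells, with a difference of −0.22 ± 0.08 (SE; edgeR, adjusted p = 0.0387; 0.0671 by DESeq2), and passed the threshold under 6 of 15 alternative settings. The call was lost by DESeq2, with the 70th percentile (0.131) and without any 1 of 7 of the 9 libraries (edgeR, adjusted p 0.0502 to 0.12), Kmt2d_KO library 2 among them (−0.20, 0.0904). So 3 of the 8 genes tested were called, 2 up and 1 down, where 36.7% of all 12786 genes tested were called.

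The other 5 genes tested did not pass with the score limit and list used here. Pgf was at 20.8 to 62.7 CPM in hypoxic and 19.3 to 70.3 in other cells (+0.21 ± 0.11 on the log2 scale, SE; edgeR, adjusted p = 0.130), and went up in some libraries and down in others. The receptor genes had differences of +0.20 for Nrp1, −0.09 for Tek and −0.52 for Flt1 with adjusted p of 0.150, 0.575 and 0.164 in edgeR, and Vegfc differed by 0.01 (adjusted p = 0.986). Other settings called 2 of these 5 genes. Pgf passed with a 12-gene list (the hypoxia genes without Ero1l, Ndrg1, Slc2a1 and Bnip3; +0.28, edgeR, adjusted p = 0.0354), the 90th percentile (+0.42, 0.0278), no filter on low counts (+0.18, 0.0228) and without Kmt2d_KO library 3 (+0.28, 0.0367), where 36%, 41.6%, 20.6% and 35.9% of all genes were called. Nrp1 passed with the 12-gene list (+0.33, edgeR, adjusted p = 0.0153) and the 70th percentile (+0.30, 0.02), where the latter called 32.9% of all genes. Kdr and Tie1 did not pass the filter on low counts in tumour cells.

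**Figure D2:**
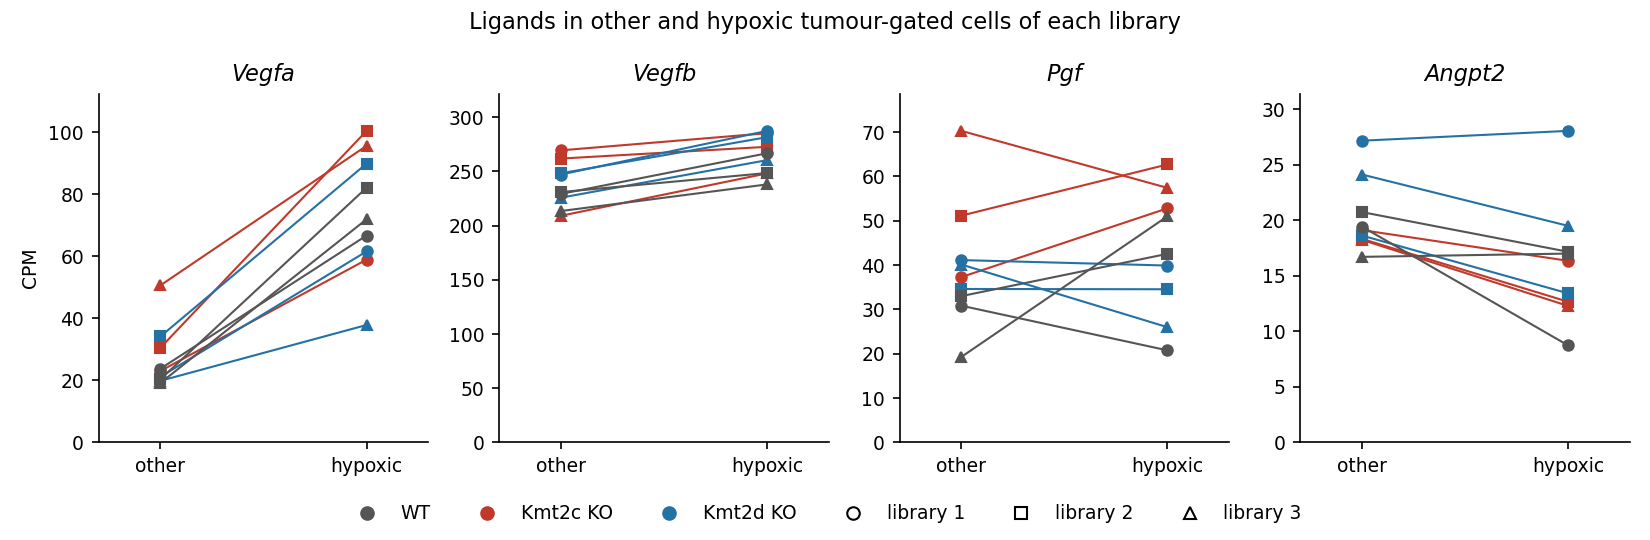
CPM of Vegfa, Vegfb, Pgf and Angpt2 in the other and hypoxic tumour cells of each library (linear axes from 0), with a line joining both values of a library, colour for genotype and symbol for library number. All 9 Vegfa and all 9 Vegfb lines go up, and the Pgf lines cross.

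Along the score, Vegfa was level over the lower bins and higher at the top. With tumour cells cut into 5 bins at every 20th percentile of the same library-weighted score, the median of the 9 libraries was 23.9, 20.5, 19.4, 28.7 and 71.9 CPM from the lowest to the highest bin. The ranges over libraries were 20.7 to 56.6 in the lowest bin and 37.9 to 100.4 in the highest, and the fewest cells in any bin of a library were 33. Kmt2c_KO library 3 was the highest library in each of the lower 4 bins, at 39.8 to 59.1.

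**Figure D3:**
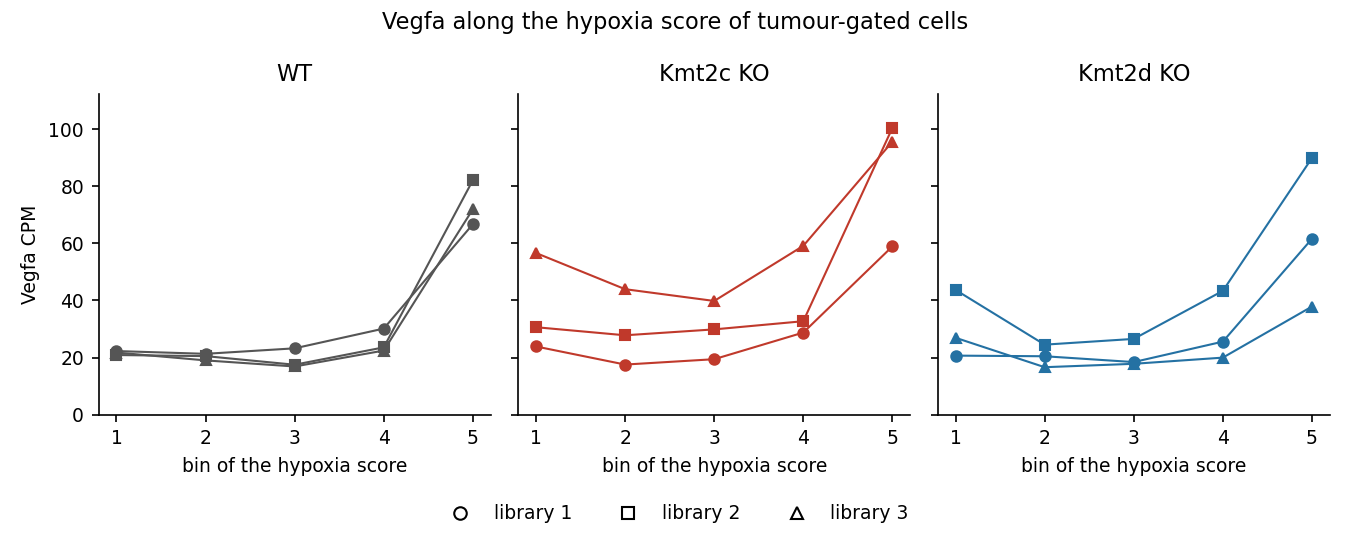
Vegfa CPM (y axis) in 5 bins of the hypoxia score (x axis, lowest to highest) of tumour cells, with 1 line per library and 1 panel per genotype. Values stay under 60 in bins 1 to 4 and reach 37.9 to 100.4 in bin 5.

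The rise of Vegfa in hypoxic cells was not shown to differ between genotypes. Its hypoxic-minus-other difference was smaller in Kmt2c_KO than in WT by 0.44 ± 0.22 on the log2 scale (SE; edgeR interaction test, adjusted p = 0.586), and smaller in Kmt2d_KO than in WT by 0.46 ± 0.23 (adjusted p = 0.573). The knockouts differed from each other by −0.01 ± 0.17 (Kmt2d_KO minus Kmt2c_KO, adjusted p = 1.00). For the other 7 genes tested these differences ran from −0.84 (Vegfc) to +0.93 (Flt1) for Kmt2c_KO against WT, from −1.41 (Vegfc) to +1.53 (Flt1) for Kmt2d_KO against WT and from −0.58 (Vegfc) to +0.60 (Flt1) between the knockouts (edgeR, adjusted p 0.628 to 0.996). Of the 8 genes tested, 0 passed in any of these 3 contrasts by edgeR, 0 had an unadjusted p under 0.05 and 0 passed by DESeq2. Over all genes 0%, 0% and 0.0235% passed for Kmt2c_KO against WT, Kmt2d_KO against WT and Kmt2d_KO against Kmt2c_KO.

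The share of hypoxic cells, taken among cells with an H2BMc UMI, differed between tumours. Within these cells H2BMc was higher in hypoxic than in other cells (+0.80 ± 0.05 on the log2 scale, SE; edgeR, adjusted p = 6.46e-11). It was also higher in Kmt2c_KO than in WT (+0.73 ± 0.16, adjusted p = 0.0108). The part of the reporter rule in the shares was not tested. The hypoxic share was 27.7%, 41.0% and 34.8% in Kmt2c_KO libraries 1 to 3, 16.2%, 21.0% and 6.47% in Kmt2d_KO, and 10.2%, 12.7% and 9.94% in WT. All Kmt2c_KO values lay above all others. The exact 95% Clopper-Pearson intervals, which cover counting error only, ran from 26.2% to 43.0% over the Kmt2c_KO libraries and from 6.94% to 15.1% over WT. The mean was 34.5 ± 6.63% in Kmt2c_KO, 14.6 ± 7.41% in Kmt2d_KO and 10.9 ± 1.52% in WT (SD, n = 3). The exact two-sided permutation test gave p = 0.1 for Kmt2c_KO against WT and against Kmt2d_KO, the smallest that 3 against 3 allows, and p = 0.5 for Kmt2d_KO against WT. With the 3 groups together, the Kruskal-Wallis statistic gave an exact permutation p = 0.05 (adjusted p = 0.133 over the 8 tests of shares).

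In the 3 Kmt2c_KO libraries 47.5%, 69.3% and 51.9% of the tumour-cell Vegfa UMIs came from hypoxic cells. The corresponding values were 34.1%, 41.3% and 11% in Kmt2d_KO and 23.7%, 31.8% and 26.2% in WT.

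Over all tumour cells, Vegfa and Pgf were higher in Kmt2c_KO than in WT. Median depth per tumour cell was 8469 to 11383 UMIs in Kmt2c_KO, 11021 to 14311 in Kmt2d_KO and 13514 to 23936 in WT. The part of depth in these differences was not tested. Vegfa was at 32.4, 59.0 and 67.0 CPM in Kmt2c_KO libraries 1 to 3, at 27.3, 45.9 and 21.0 in Kmt2d_KO and at 28.1, 26.8 and 23.7 in WT. The lowest Kmt2c_KO library was above the highest WT library, with Kmt2d_KO library 2 among the Kmt2c_KO values and its libraries 1 and 3 in or below the WT range. Vegfa rose by 1.01 ± 0.30 on the log2 scale in Kmt2c_KO (SE; 2.01-fold, edgeR, adjusted p = 0.0399). Pgf was at 41.4, 55.9 and 65.6 in Kmt2c_KO, at 40.9, 34.6 and 39.3 in Kmt2d_KO and at 29.8, 34.0 and 22.0 in WT. The 3 groups did not overlap for Pgf, by narrow margins around Kmt2d_KO (34.6 against 34.0 in WT, and 40.9 against 41.4 in Kmt2c_KO). Pgf rose by 0.91 ± 0.18 on the log2 scale in Kmt2c_KO against WT (SE; 1.88-fold, edgeR, adjusted p = 0.00736). How many of all genes also do not overlap between groups was not counted, for these or the other cell types.

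The 2 genes called were 2 of 8 tested, both up, where 18.8% of 13738 genes tested were called. The median over the 8 was +0.67 on the log2 scale, against −0.00 over all genes tested. Read within each state, Vegfa was higher in Kmt2c_KO by 0.20 ± 0.28 among hypoxic cells (SE; edgeR, adjusted p = 0.767) and by 0.67 ± 0.27 among other cells (adjusted p = 0.109), and passed in neither. The Vegfa call was also lost without any 1 of the 3 WT libraries or of Kmt2c_KO libraries 2 and 3 (adjusted p 0.0985 to 0.133), and with tumour cells taken by Krt8 (+0.61 ± 0.32, adjusted p = 0.237). The Pgf call was lost among hypoxic cells alone (+0.60, edgeR adjusted p = 0.196) and held in the other 17 of 18 alternatives.

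The remaining tumour-cell values did not pass for Kmt2c_KO against WT in edgeR with all libraries and the filter on low counts. Tek was at 5.23, 5.58 and 10.2 CPM in Kmt2c_KO and 2.84, 4.18 and 4.18 in WT (+0.88 ± 0.32 on the log2 scale, SE; edgeR, adjusted p = 0.0832, and 0.0366 by DESeq2). Vegfc differed by +1.04 ± 0.68, Nrp1 by +0.46 ± 0.31, Vegfb by +0.17 ± 0.11, Angpt2 by −0.14 ± 0.16 and Flt1 by −0.64 ± 0.35 (adjusted p 0.228 to 0.589 in edgeR). With Kmt2d_KO library 2 left out of the 3-group fit, Tek (+0.88 ± 0.29, edgeR, adjusted p = 0.041), Vegfc (+1.03 ± 0.28, 0.0165) and Nrp1 (+0.47 ± 0.16, 0.0466) passed as well, in a fit that called 28.3% of all genes in place of 18.8%. Tek and Vegfc also passed with only these 2 groups in the fit (edgeR, adjusted p = 0.0296 and 0.0182), where 26.5% of all genes were called, and Tek with no filter on low counts (0.0265), where 11.2% were. Without Kmt2d_KO library 1, Tek passed as well (+0.90, edgeR, adjusted p = 0.0475), in a fit that called 2392 of 14052 genes. Tie1 had 21, 7 and 14 UMIs in Kmt2c_KO tumour cells, 3, 9 and 3 in Kmt2d_KO and 2, 0 and 0 in WT. It passed the filter only through Kmt2c_KO and only in some of these fits, so no test of it is given.

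In Kmt2d_KO tumour cells no member passed against WT. Of 8 tested, 0 were called by edgeR and 0 by DESeq2, and 0 and 1 had an unadjusted p under 0.05, where edgeR called 2.04% of all genes. The differences were +0.38 ± 0.18 on the log2 scale for Pgf (SE; edgeR, adjusted p = 0.303), +0.23 ± 0.30 for Vegfa (0.760), +0.27 ± 0.16 for Angpt2 (0.424) and −0.37 ± 0.31 for Nrp1 (0.604). Those of Tek (+0.31), Flt1 (−0.47), Vegfb (+0.08) and Vegfc (−0.06) had adjusted p of 0.544 to 0.982 in edgeR. The WT libraries enter both comparisons of a knockout with WT, so those are not independent.

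Between the knockouts no member passed either. With all libraries, Vegfa differed by −0.78 ± 0.29 on the log2 scale (Kmt2d_KO minus Kmt2c_KO, SE; edgeR, adjusted p = 0.198), Pgf by −0.53 ± 0.17 (0.155), Nrp1 by −0.83 ± 0.29 (0.179) and Angpt2 by +0.41 ± 0.15 (0.204). Tek (−0.57), Flt1 (+0.17), Vegfb (−0.09) and Vegfc (−1.09) had adjusted p of 0.329 to 0.823 in edgeR. Over all genes 0% passed by edgeR, 4 of the 8 genes had an unadjusted p under 0.05, and DESeq2 called 0 of the 8. With no filter on low counts and all libraries, Vegfa, Pgf and Nrp1 passed (edgeR, adjusted p = 0.0432, 0.0447 and 0.0428), where 2.82% of all genes were called. Without Kmt2d_KO library 2, Vegfa was lower in Kmt2d_KO by −1.16 ± 0.23 (edgeR, adjusted p = 0.00502), Nrp1 by −1.34 ± 0.17 (0.00025) and Vegfc by −2.59 ± 0.31 (0.000134), while Angpt2 was higher by 0.57 ± 0.11 (0.00449), in a fit that called 18.7% of all genes. Against WT, Nrp1 was then lower by −0.87 ± 0.19 (edgeR, adjusted p = 0.0199) and Vegfc by −1.56 ± 0.38 (0.0334), where 5.08% of all genes were called. Kmt2d_KO library 2 was set apart by its counts in these same data. It held 73 Vegfc UMIs, against 7 and 20 in libraries 1 and 3, and the highest Vegfa of its group. Leaving it out removed the values that went against these differences.

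**Figure D4:**
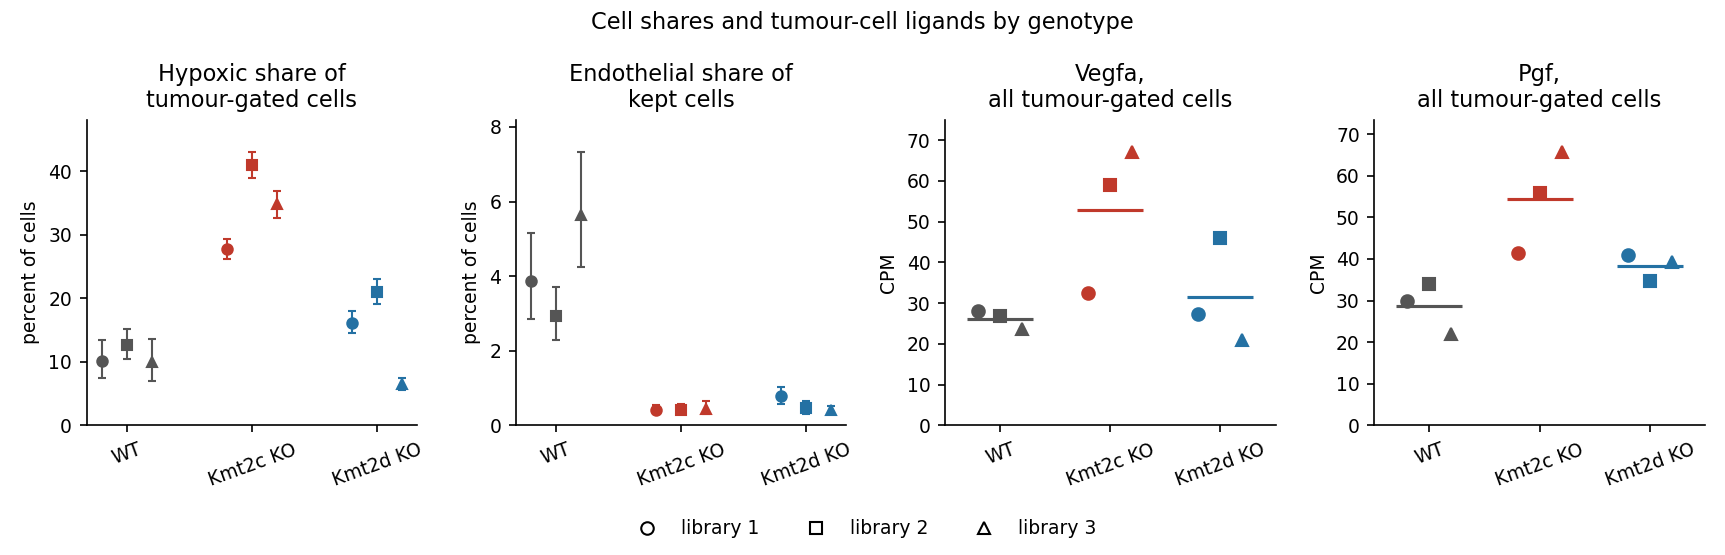
Share of hypoxic cells among tumour cells, share of endothelial cells among kept cells (percent, bars are exact 95% intervals), and Vegfa and Pgf in all tumour cells (CPM, line at the group mean), with 1 point per library and axes from 0. WT libraries hold 2.94% to 5.64% endothelial cells against 0.413% to 0.784% in the knockouts, and the Pgf values of Kmt2d_KO lie closely between those of WT and Kmt2c_KO.

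Endothelial cells made up a smaller share of the kept cells in both knockouts. The share was 0.415%, 0.423% and 0.448% in Kmt2c_KO libraries 1 to 3, 0.784%, 0.455% and 0.413% in Kmt2d_KO, and 3.88%, 2.94% and 5.64% in WT. Every knockout value lay below every WT value, and the exact 95% intervals reached up to 1.04% in the knockouts and down to 2.3% in WT. The mean was 0.429 ± 0.0174% in Kmt2c_KO, 0.55 ± 0.203% in Kmt2d_KO and 4.16 ± 1.37% in WT (SD, n = 3). The exact two-sided permutation test gave p = 0.1 for each knockout against WT, the smallest possible, and p = 0.05 over the 3 groups (adjusted p = 0.133).

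The counts of endothelial cells themselves were close (27 to 49 in Kmt2c_KO, 32 to 60 in Kmt2d_KO and 46 to 70 in WT), and the totals differed. The WT libraries, with the fewest kept cells, had also lost the most barcodes to the mitochondrial limit in libraries 1 and 3 (50.7% and 68.5%), and the part of this loss in the shares was not tested beyond the values that follow. With the same endothelial rule applied to all barcodes, kept or not, the shares of all barcodes were 0.297% to 0.422% in Kmt2c_KO, 0.332% to 0.564% in Kmt2d_KO and 1.63% to 1.96% in WT. Among cells without an H2BMc or Krt8 UMI they were 1.29% to 1.39%, 0.94% to 3.62% and 14.0% to 17.1%. Shares after digestion, storage in freezing medium and Percoll clean-up count what survived these steps, and fewer vessels and fewer endothelial cells recovered cannot be told apart.

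Within endothelial cells, the ligands Pgf and Angpt2 were higher and Tek, the angiopoietin receptor, was lower in Kmt2c_KO than in WT. Pgf was at 290, 358 and 264 CPM in Kmt2c_KO libraries 1 to 3, at 104, 276 and 146 in Kmt2d_KO and at 27.5, 57.7 and 105 in WT. The Kmt2c_KO and WT values did not overlap, and Pgf rose by 2.22 ± 0.39 on the log2 scale (SE; 4.67-fold, edgeR, adjusted p = 0.00448). The call held in 15 of 16 alternatives, 1 of which (a minimum of 10 cells) repeats the main fit. It was lost with endothelial cells taken 1 by 1 by detected markers of the study's list (+0.97 ± 0.38, edgeR, adjusted p = 0.0828). The study itself annotated clusters by marker scores, so this rule by the markers of the study is not its own definition of endothelial cells.

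Angpt2 was at 229, 464 and 522 CPM in Kmt2c_KO, at 185, 420 and 193 in Kmt2d_KO and at 126, 166 and 113 in WT. All 6 knockout values were above the WT values. It rose by 1.60 ± 0.34 on the log2 scale in Kmt2c_KO (SE; 3.02-fold, edgeR, adjusted p = 0.0121) and held in 12 of 16 alternatives, being lost without Kmt2c_KO library 3 (0.0553), WT library 1 (0.0583) or WT library 3 (0.0639), and with the markers of the study, where the direction turned (−0.15 ± 0.29, edgeR, adjusted p = 0.779). Tek was at 76.2, 44.8 and 110 in Kmt2c_KO, at 122, 102 and 126 in Kmt2d_KO and at 146, 163 and 139 in WT. All 6 knockout values were below the WT values. How many of all genes separate the groups in this way in endothelial cells was not counted. Tek fell by 0.99 on the log2 scale in Kmt2c_KO (SE 0.26; edgeR, adjusted p = 0.0327, and 0.106 by DESeq2). The call was lost without any 1 of the WT libraries or of Kmt2c_KO libraries 1 and 2 (edgeR, adjusted p 0.08 to 0.175).

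These were 3 of 8 genes tested, where 5.91% of 5401 genes were called. The median over the 8 was +0.06 on the log2 scale. The VEGF receptors did not pass with these cells. Flt1 was at 940, 945 and 1043 CPM in Kmt2c_KO, at 533, 911 and 432 in Kmt2d_KO and at 497, 647 and 659 in WT. Its Kmt2c_KO and WT values did not overlap, with a difference of +0.71 ± 0.24 on the log2 scale (SE; edgeR, adjusted p = 0.103, 0.00522 without Kmt2d_KO library 2 and 0.042 with no filter on low counts, where 9.85% and 3.93% of all genes were called). With the markers of the study, where 21.3% of all genes were called, Flt1 was lower in Kmt2c_KO (−1.27 ± 0.26, edgeR, adjusted p = 0.00446). Kdr was at 386, 354 and 454 in Kmt2c_KO and 544, 488 and 424 in WT (−0.27 ± 0.19, adjusted p = 0.443), with overlapping values. Nrp1 differed by −0.32 ± 0.22 (0.447), Tie1 by −0.44 ± 0.21 (0.247) and Vegfb by +0.39 ± 0.36 (0.598). Vegfa and Vegfc did not pass the filter on low counts. With the markers of the study, Kdr (−2.20 ± 0.32, edgeR, adjusted p = 0.000721), Nrp1 (−1.94 ± 0.32, 0.00122) and Tie1 (−2.33 ± 0.39, 0.00146) were lower in Kmt2c_KO, as was Tek (−2.60 ± 0.36, 0.000623), while Vegfb was higher (+1.87 ± 0.36, 0.00277). Vegfa and Vegfc passed the filter with that rule and not with the cells used here, so no test of them is given. The cells of that rule held 1495 to 2121 CPM of the 8 endothelial markers in Kmt2c_KO and 5885 to 6636 in WT. Krt8 was at 27.9 to 55.9 CPM in those cells of Kmt2c_KO and at 3.93 to 16.4 in WT.

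The hypoxia genes were also read in these endothelial cells. The 16 genes summed to 1072, 2056 and 1497 CPM in the endothelial cells of Kmt2c_KO, to 989, 1674 and 779 in Kmt2d_KO and to 711, 904 and 887 in WT. Kmt2c_KO library 2 and Kmt2d_KO library 2 had the highest sums of their groups, and Kmt2d_KO library 3 lay within the WT range. Within each knockout, Pgf was highest and Tek lowest in library 2. Angpt2 was highest in library 2 of Kmt2d_KO but in library 3 of Kmt2c_KO. Singly, Pfkfb3, Slc2a1 and Fam162a passed for Kmt2c_KO against WT (edgeR, adjusted p = 0.00705, 0.0383 and 0.0403), where 5.91% of all genes were called. Ndrg1 was lower without passing (−0.41 ± 0.23 on the log2 scale, SE; edgeR, adjusted p = 0.333), and every other hypoxia gene tested there was higher. Whether the hypoxia genes have a part in the Pgf, Angpt2 and Tek differences was not tested. The summed endothelial markers, which also select these cells, were level at 6620 to 8020 CPM, and H2BMc was at 0 by definition. Endothelial depth differed, with a median of 3393 to 6542 UMIs per cell in Kmt2c_KO and 4997 to 8331.5 in WT.

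In Kmt2d_KO endothelial cells 0 of 8 genes passed against WT by edgeR and by DESeq2, with 2 at an unadjusted p under 0.05 by each, where edgeR called 0.037% of all genes. The 2 largest differences were +1.35 ± 0.40 on the log2 scale for Pgf (SE; edgeR, adjusted p = 0.270) and +0.94 ± 0.34 for Angpt2 (0.355). Flt1 (+0.04), Kdr (+0.03), Nrp1 (+0.19), Tek (−0.34), Tie1 (−0.18) and Vegfb (−0.40) had adjusted p of 0.678 to 0.979 in edgeR. With no filter on low counts edgeR called Pgf (adjusted p = 0.000179), Angpt2 (0.0201) and Vegfc, and 0.842% of all genes. Between the knockouts 0 of 8 passed by edgeR and by DESeq2, with 4 and 2 at an unadjusted p under 0.05, where edgeR called 0.148% of all genes. The differences, Kmt2d_KO minus Kmt2c_KO, were −0.87 on the log2 scale for Pgf, −0.79 for Vegfb, −0.66 for Flt1, −0.65 for Angpt2, +0.26 for Tie1, +0.31 for Kdr, +0.51 for Nrp1 and +0.65 for Tek (edgeR, adjusted p 0.379 to 0.752). Without Kmt2d_KO library 2, Pgf was lower in Kmt2d_KO than in Kmt2c_KO by −1.33 ± 0.30 (edgeR, adjusted p = 0.00758), Angpt2 by −1.16 ± 0.27 (0.00874) and Flt1 by −1.08 ± 0.20 (0.000969), where 4.67% of all genes were called. That library held the highest value of its group for each of these genes, so leaving it out removed the value that went against the difference.

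**Figure D5:**
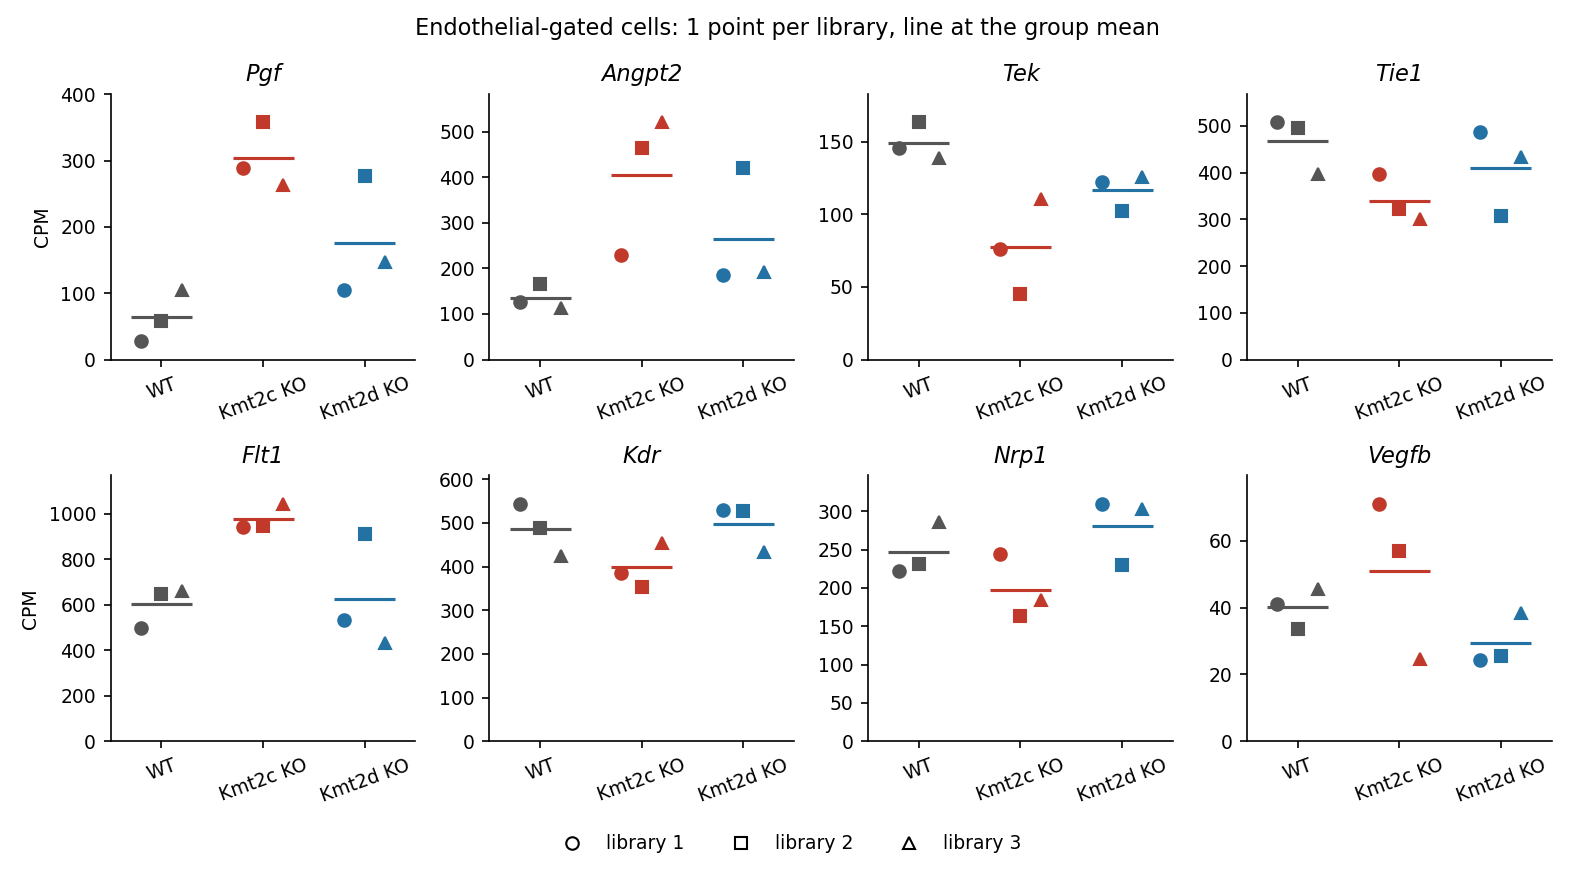
CPM of 8 of the 10 genes in endothelial cells by genotype, with 1 point per library, a line at the group mean and linear axes from 0. Pgf (264 to 358 in Kmt2c_KO against 27.5 to 105 in WT) and Angpt2 do not overlap between Kmt2c_KO and WT, and Kdr does.

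A second list held 34 other genes of vessel growth, among them further ligands, co-receptors, Notch genes, endothelial state markers, oxygen sensors and the antagonist Thbs1. In tumour cells 8 of the 20 tested rose in Kmt2c_KO against WT and 0 fell (edgeR, median +0.24 on the log2 scale), where 18.8% of all genes were called. The largest differences were +1.95 ± 0.31 for Thbs1, which encodes the anti-angiogenic thrombospondin 1, +1.37 ± 0.27 for Apln, the ligand of the apelin receptor on endothelial cells, and +1.14 ± 0.24 for Notch1 (adjusted p 0.00294 to 0.0107). Vegfd, a further VEGF ligand, rose by 1.05 ± 0.18 and the oxygen sensor Egln1 by 1.02 ± 0.17 (adjusted p = 0.00455 and 0.00451 in edgeR). In hypoxic against other cells 10 of 20 rose and 2 fell, where 36.7% of all genes were called, with Apln at +2.85 ± 0.12, Egln1 at +1.95 ± 0.06, Esm1 at +1.58 ± 0.17 and Thbs1 at +1.41 ± 0.18. Sema3a, a semaphorin that binds NRP1, fell by 0.40 on the log2 scale.

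In endothelial cells 2 of 27 genes of the list passed in Kmt2c_KO against WT (edgeR, median −0.03), or 7.41%, near the 5.91% of all genes. Apln, a gene of sprouting tip cells, rose by 1.28 ± 0.32 on the log2 scale (adjusted p = 0.0263), and Aplnr, its receptor, fell by 3.99 (SE 0.60, adjusted p = 0.00218). Aplnr was the 1 gene of the list that passed between the knockouts, higher in Kmt2d_KO by 3.55 ± 0.63 (adjusted p = 0.0442). For Kmt2d_KO against WT 0 passed in either cell type by edgeR.

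Over the 18 hypoxic and other tumour-cell sums, genes among those most like Vegfa were Neat1 (Pearson r 0.964), Noct (0.955), Sdc4 (0.955) and Kdm6b (0.954), among 11754 genes compared. Both sums of a library share its depth and its tumour. Over 43 sums of cell type by library, those most like Kdr were Cd36 (r 0.928), Cd300lg (0.928), Hlx (0.927), Zfp366 (0.908) and Cxcr4 (0.905) among 11261 genes, and the other receptors had r 0.856 (Nrp1), 0.826 (Tie1), 0.787 (Flt1) and 0.704 (Tek). These sums share libraries and group by cell type, so r mostly describes the order of the cell types.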

How the data were processed

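The deposited values were raw UMI counts per gene and cell barcode in 1 matrix for all 9 libraries, made by the authors with Cell Ranger 7.0.1 (count and aggregation) on mm10, per the submitters' processing notes. The annotation release, and whether aggregation thinned the libraries to a common depth, were not given in the sources used here. Libraries took their group from the genotype letter of the deposited aggregation table. Total UMIs ran from 21529691 to 125617312 per library. Tumours are taken as separate samples, and p-values measure only the spread between them.

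The members and all gene lists were chosen with earlier results of these data known. Counts were summed per library over the cells of a type (at least 20) and tested with edgeR 4.0.16 in R 4.3.3 (quasi-likelihood test, filterByExpr, TMM, Benjamini-Hochberg over all genes tested, called under 0.05). All 9 libraries were in 1 fit, with the library as a block for hypoxic against other cells. The SE given with an edgeR difference is derived, as the absolute log2 fold change over the square root of the F statistic of its test. DESeq2 1.42.0 was an alternative. Shares and cell type levels were tested by exact permutation in SciPy 1.17.1, the levels on log2(CPM + 1). Outside tumour cells, a cell had to hold more markers of its type than of any other, and ties were left out. Cells passing several marker rules without a tie were kept, and no doublet caller was run. Stromal fibroblasts were not assigned. The members that passed the filter on low counts were named in each comparison (for the genotype difference of the hypoxic response, by their range), and from the list of 34 only called genes, the largest first. The tests were tested on simulated counts with known changes. Alternatives were other filters, scalings, gates, hypoxia limits and leaving out each library. A gene among those most like Vegfa is not reported here.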

Additional observations from a re-analysis of the deposited data

Results flagged for a closer look

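For 2 genes the difference between macrophages and tumour cells went opposite ways in every library of 2 genotypes, and these differences between genotypes were not tested. For Vegfa, the macrophage-minus-tumour difference on the log2(CPM + 1) scale was 0.28 ± 0.15 in Kmt2c_KO, 0.69 ± 0.55 in Kmt2d_KO and −2.24 ± 2.43 in WT (SD, n = 3). The Kmt2c_KO difference lay 2.52 above that of WT and the Kmt2d_KO difference 2.94 above it. The WT macrophages held 0, 1 and 6 Vegfa UMIs in 29, 47 and 70 cells. For Flt1, the difference was 2.33 ± 0.80 in Kmt2d_KO and −1.58 ± 0.11 in WT (SD, n = 3), which lie 3.91 apart. The macrophages held 1, 5 and 2 Flt1 UMIs in Kmt2d_KO and 0, 0 and 0 in WT, and 3 UMIs would be from 11.3 to 21.0 CPM in the WT macrophage sums, above the Flt1 level of 1.75 to 2.15 in WT tumour cells. A lower Flt1 level in WT macrophages than in WT tumour cells was therefore not detectable at this depth.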

How the results depend on the processing

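No paired analysis was possible because the files do not tie libraries to the labelled replicate numbers. Of the values of the 10 genes under alternatives, 1226 kept their direction and side of the threshold (a value past it in neither setting counted as kept), 34 passed only under the alternative, 28 were lost and 2 reversed. The kept values include those with a minimum of 10 endothelial cells, a setting that repeats the main fit. Both reversals came with endothelial cells taken by the markers of the study, for Kmt2c_KO against WT (Angpt2 −0.15, Flt1 −1.27 on the log2 scale). That rule took single cells with at least 2 detected genes of the study's endothelial list, where the study itself scored clusters. It held 148, 116 and 78 cells in Kmt2c_KO, with summed endothelial markers at 1495 to 2121 CPM, against 5885 to 6636 in WT. It called 806 genes up and 1047 down, against 213 and 106 with the cells used here. The cause was not tested.

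Counts of called genes moved over 1.5 times as follows. In tumour cells, Kmt2c_KO against WT gave 488 among hypoxic cells. Kmt2d_KO against WT gave 631 by DESeq2, 555 with no filter on low counts, 176 with 2 groups only and 21 among hypoxic cells. Kmt2d_KO against Kmt2c_KO gave 530, 652, 189 with at least 2 H2BMc UMIs and 128 among hypoxic cells. In endothelial cells, Kmt2c_KO against WT gave 593 with no filter and 1853 with the markers of the study. Kmt2d_KO against WT gave 4 by DESeq2, 127 with no filter, 6 with at least 2 markers, 0 with at least 4, 74 with the markers of the study and 80 without exclusions. Kmt2d_KO against Kmt2c_KO gave 163 with no filter, 5 and 1 with at least 2 and 4 markers, and 1 without exclusions. The genotype difference of the hypoxic response gave 11 by DESeq2, 107 with no filter, 2 and 9 with the 90th and 70th percentile and 1 with the 12-gene list for Kmt2c_KO against WT, 4 and 90 by DESeq2 and with no filter for Kmt2d_KO against WT, and 1, 114 and 0 (cells of at least 5000 UMIs) for Kmt2d_KO against Kmt2c_KO.

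With no filter the share of called genes that were up moved from 48.2% to 60.2% for Kmt2d_KO against WT in tumour cells. Leaving out 1 library at a time gave 1183 to 3942 genes for Kmt2c_KO against WT, 103 to 707 for Kmt2d_KO against WT and 0 to 2601 for Kmt2d_KO against Kmt2c_KO in tumour cells, the 2601 without Kmt2d_KO library 2. It gave 108 to 609, 0 to 17 and 0 to 289 in endothelial cells, 3742 to 4687 for hypoxic against other cells, and 0 to 8, 0 to 23 and 0 to 8 for the interactions. The permutation p over 3 groups became 0.0107 to 0.121 for both shares, and 0.00357 for the endothelial share with at least 2 markers. With a minimum of 10 cells, 10 of 50 pairs of cell types were separated, against 16 of 20.

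The endothelial values rest on 27 to 70 cells per library, so genes of few UMIs such as Vegfc and Vegfa did not pass the filter on low counts there. With 3 libraries a group, the permutation tests of shares cannot go below 0.1 for a pair.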
